A study of Boehmeria nivea with 18 samples.

Results

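Lignin-related transferases, peroxidases and laccases of ramie (Boehmeria nivea), a bast fiber crop, were examined in stem bark. They were the hydroxycinnamoyltransferase HST (BntWG10001019, whole_GLEAN_10001019 in the files), the spermidine hydroxycinnamoyltransferase SHT (BntWG10003940, whole_GLEAN_10003940), peroxidase N1 (BntWG10000504, whole_GLEAN_10000504), peroxidase C3 (BntWG10003938, whole_GLEAN_10003938) and the laccases BntWG10014338 (whole_GLEAN_10014338) and BntWG10014339 (whole_GLEAN_10014339). These were 6 of the 20840 annotated genes listed in the transcriptome libraries, and all 6 were listed in at least 1 library. The genes were picked by name when their levels in these libraries were already known. Their difference between the sections is therefore given as a description, with no test.

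The study compared bark from the top section of the stem (TPS) with that from the middle section (MPS), where the labels place the thickening of the secondary walls of fiber cells, in the cultivar Zhongzhu No. 1, with no treatment given. Each section had 3 replicates, each from bark mixed from 5 plants per the labels, and the same 6 RNAs were used for cDNA and small RNA libraries. The labels give an age of 40 days and the methods give 30 days. Bark is a mixture of epidermis, cortex, phloem and fibers, so fewer cells of a type and less RNA per cell cannot be told apart in any value below.

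Lignin is built from monolignols, which are made from phenylalanine in the cytoplasm and joined in the wall. HST acts early on this route: it moves a p-coumaroyl group onto shikimate, the form on which the ring is then hydroxylated. SHT belongs to the same BAHD family of acyltransferases but puts hydroxycinnamoyl groups on spermidine, and in Arabidopsis it is known from the tapetum of the anther. Class III peroxidases, with hydrogen peroxide, and laccases, with oxygen, oxidize monolignols in the wall, after which they couple into polymer. Both are large families, and members also act outside of lignin. The names here come from the closest Swiss-Prot entries in the study's table, tobacco for peroxidase N1 and horseradish for peroxidase C3. In Arabidopsis, laccase transcripts are cut under the guidance of miR397.

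Of the 6 genes, 4 passed the filter on low counts and were fitted, and they differed strongly between the sections. HST, SHT and peroxidase C3 were lower in MPS, with means 14.8-fold, 42.1-fold and 8.87-fold below those of TPS. Peroxidase N1 was higher in MPS, 50.1-fold by its means. The laccases were at most 1.87 FPKM in any library and did not pass this filter in the main fit. FPKM scales the fragments of a transcript to its length and to the size of the library, so a comparison between genes rests on the lengths of their models.

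HST (BntWG10001019, coding length 1344 bases) was at 4.16, 6.42 and 5.15 FPKM in TPS replicates 1, 2 and 3. In MPS replicates 1, 2 and 3 it was at 0.32, 0.24 and 0.5 FPKM. Every TPS library was above every MPS library, and the spread within TPS was the smallest of the 4 fitted genes in that section, with a coefficient of variation of 21.6%. The means were 5.24 ± 1.13 FPKM in TPS and 0.353 ± 0.133 FPKM in MPS (n = 3 each, SD), and the fitted log2 fold change of MPS over TPS was -3.90 (SE 0.462).

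SHT (BntWG10003940, 1389 bases) was at 9.17, 3.16 and 5.77 FPKM in TPS replicates 1, 2 and 3. It was at 0.06, 0.15 and 0.22 FPKM in MPS replicates 1, 2 and 3, which were 4, 9 and 13 counts. The sections did not overlap, while TPS replicate 1 was well above TPS replicate 2. The means were 6.03 ± 3.01 FPKM in TPS and 0.143 ± 0.0802 FPKM in MPS (n = 3 each, SD), with a fitted log2 fold change of -5.33 (SE 0.635).

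Peroxidase C3 (BntWG10003938, 1407 bases) was the most abundant of the 6 genes in TPS. It was at 100.82, 38.68 and 72.26 FPKM in TPS replicates 1, 2 and 3 and at 6.29, 8.3 and 9.28 FPKM in MPS replicates 1, 2 and 3. Although the sections did not overlap, the gene was not near 0 in MPS, where at least 418 counts stood behind each value. The means were 70.6 ± 31.1 FPKM in TPS and 7.96 ± 1.52 FPKM in MPS (n = 3 each, SD), with a fitted log2 fold change of -3.09 (SE 0.343).

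Peroxidase N1 (BntWG10000504) was the fitted gene with the opposite direction. It was at 0.12, 0.21 and 0.07 FPKM in TPS replicates 1, 2 and 3, from 2, 3 and 1 counts, and at 10.41, 3.72 and 5.91 FPKM in MPS replicates 1, 2 and 3. All 3 MPS libraries were far above the TPS libraries, and MPS replicate 1 was the highest. The means were 0.133 ± 0.0709 FPKM in TPS and 6.68 ± 3.41 FPKM in MPS (n = 3 each, SD), with a fitted log2 fold change of 5.55 (SE 0.729). Its gene model had a coding length of 444 bases, the shortest among the 8 peroxidases named here, of which the next was 822 bases long.

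**Figure D1:**
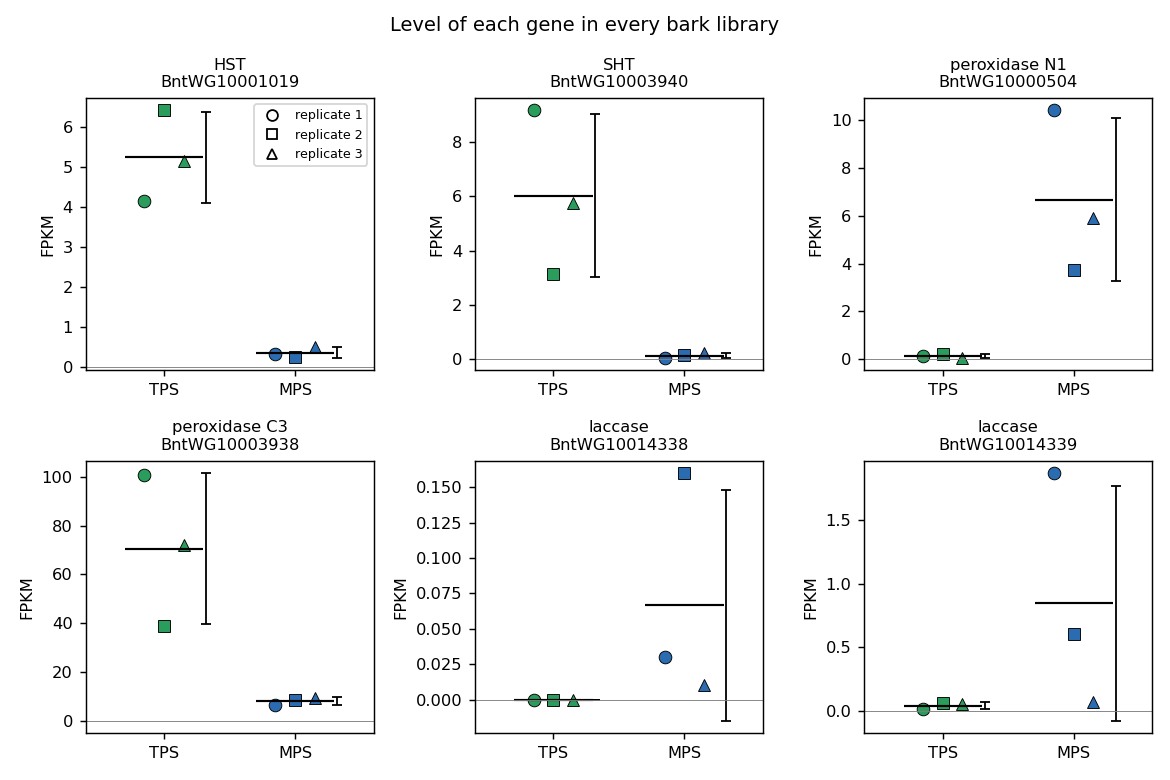
Level of each gene (FPKM, linear axes that differ between panels) in the 3 TPS and the 3 MPS cDNA libraries. Symbols give the replicate number, horizontal lines the section mean and bars the SD; the laccase panels end at 0.16 and 1.87 FPKM, against 100.82 FPKM for peroxidase C3, and bars that reach below 0 come from the SD alone.

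Between the sections, 103 of 13585 annotated genes were called by edgeR's quasi-likelihood test at an adjusted p under 0.05 and at least a 2-fold change. That is a background of 0.758%, with 0.228% called higher and 0.53% called lower in MPS. Of the 4 fitted genes, peroxidase N1 was among the genes called higher and HST, SHT and peroxidase C3 were among those called lower. Peroxidase N1 passed the filter on low counts only through its MPS libraries, and SHT only through its TPS libraries. By edgeR, none of the 4 was called with the replicate number as a block (background 0.515%). None was called without any 1 of the 6 libraries or without the filter either, where few annotated genes were called at all. Those were 4 higher and 14 lower of 20809 without the filter, and 0 to 7 higher and 0 to 33 lower without 1 library. The 4 genes kept the direction of their fitted values under all 14 alternatives. They were all called by DESeq2 (background 7.96%) and by limma on log2(FPKM + 0.5) (background 2.75%), by limma also without the filter. With replicates 2 and 3 only, HST, SHT and peroxidase C3 were called and peroxidase N1 was not called by edgeR, against a background of 2.33%. Since the genes were chosen on this contrast, these calls only describe them, and nothing is read from any of these counts.

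Sections did not overlap in FPKM for 21.9% of the fitted annotated genes, with 10.1% higher and 11.8% lower in MPS. This was the case for all 6 genes, the laccases included, and it is likewise part of how they were chosen. The laccases were not fitted, so that share is not their background, and they were parted only near 0. BntWG10014339 was at 0.07 FPKM in MPS replicate 3 and 0.06 FPKM in TPS replicate 2, with 5 counts in each. BntWG10014338 had 1 count in MPS replicate 3.

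SHT and peroxidase C3, by name an acyltransferase and a peroxidase, ranked the 6 libraries in an identical order. For both, TPS replicate 1 was highest, followed by TPS replicates 3 and 2 and then MPS replicates 3, 2 and 1. Within TPS they also kept nearly constant proportions: the FPKM of peroxidase C3 was 10.99, 12.2 and 12.5 times that of SHT in replicates 1, 2 and 3. In MPS the ratio was 105, 55.3 and 42.2, so SHT was further below its TPS level than peroxidase C3. HST did not follow this order, with its highest level in TPS replicate 2 and its lowest in MPS replicate 2. As a result, HST was at 0.454, 2.03 and 0.893 times the FPKM of SHT in TPS replicates 1, 2 and 3.

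The balance of both peroxidases differed between the sections. In TPS, peroxidase N1 made up 0.119%, 0.540% and 0.0968% of the summed FPKM of the peroxidase C3 and N1 genes in replicates 1, 2 and 3. In MPS it made up 62.3%, 30.9% and 38.9% of that sum. Thus by FPKM peroxidase N1 was above peroxidase C3 in MPS replicate 1 and below it in the other MPS libraries. These shares rest on the lengths of the gene models, 444 bases for peroxidase N1 and 1407 for peroxidase C3. By expected counts peroxidase N1 was the lower also in MPS replicate 1, at 164.67 against 418. The sum of both was 38.89 to 100.94 FPKM in TPS and 12.02 to 16.7 FPKM in MPS.

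Ordered by mean FPKM in TPS, peroxidase C3 stood first, followed by SHT, HST, peroxidase N1 and BntWG10014339, while BntWG10014338 was not listed there. SHT and HST overlapped in this order, and peroxidase N1 and BntWG10014339 were separated by only 0.07 against 0.06 FPKM in their nearest libraries. In MPS the order was peroxidase C3, peroxidase N1, BntWG10014339, HST, SHT and BntWG10014338. There peroxidase C3 overlapped with peroxidase N1, BntWG10014339 overlapped with HST, SHT and BntWG10014338, and SHT overlapped with BntWG10014338, whereas every MPS value of HST was above every one of SHT.

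Ranked among all annotated genes of a library, peroxidase C3 lay at the 95.5th to 98.3rd percentile in TPS and at the 74th to 82nd in MPS. Peroxidase N1 moved from between the 26.8th and 37.8th percentile in TPS to between the 68.8th and 81.5th in MPS. HST lay between the 67.3rd and 77.7th percentile in TPS and the 37.2nd and 46.1st in MPS, and SHT between the 68.1st and 78.8th in TPS and the 25.3rd and 38.2nd in MPS. These ranks do not depend on how the libraries were scaled.

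**Figure D2:**
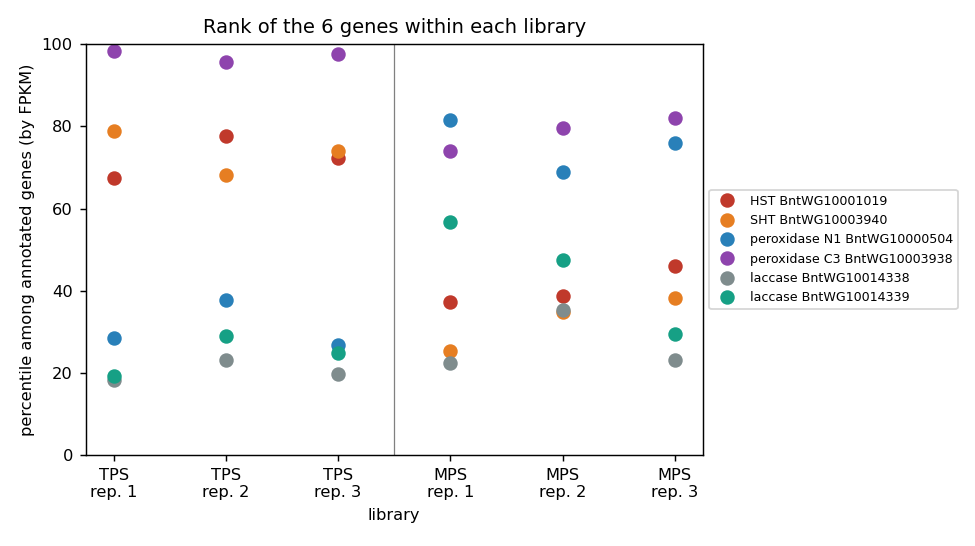
Percentile of each gene among the annotated genes of a library, by FPKM (vertical axis), in the 3 TPS and 3 MPS libraries (horizontal axis), 1 point per gene and library, a gene that was not listed being placed with all others at 0. Peroxidase C3 stays at or above the 74th percentile, peroxidase N1 lies between the 68.8th and 81.5th in MPS, and the laccase BntWG10014339 spreads from the 29.5th to the 56.8th within MPS.

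Laccases are copper enzymes of the wall, and both laccase genes were low, BntWG10014338 in every library and BntWG10014339 in all but MPS replicates 1 and 2. BntWG10014338 (1665 bases) was not listed in any TPS library and was at 0.03, 0.16 and 0.01 FPKM in MPS replicates 1, 2 and 3. These values came from 2.55, 11.89 and 1 expected counts, so that MPS replicate 2 held 77.0% of all its counts. Values under 0.01 FPKM are not listed, so the gene may be present in TPS below that limit, and no fold change is given.

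BntWG10014339 (1713 bases) was at 0.01, 0.06 and 0.05 FPKM in TPS replicates 1, 2 and 3. It was at 1.87, 0.6 and 0.07 FPKM in MPS replicates 1, 2 and 3. MPS replicates 1 and 2 were above all TPS libraries, whereas MPS replicate 3 was at the level of TPS, with 5 counts there and 5 counts in TPS replicate 2. The means were 0.04 ± 0.0265 FPKM in TPS and 0.847 ± 0.925 FPKM in MPS (n = 3 each, SD), so the SD in MPS exceeded the mean. MPS replicate 1 held 74.8% of the 206 counts in MPS, against 10 counts in all of TPS. The ratio of the means was 21.2, and it was 8.38 without MPS replicate 1. With a TPS library or MPS replicate 3 left out, the gene passed the filter. Its fitted log2 fold change was then 3.73 to 4.72, and edgeR did not call it.

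The laccases did not share their order in MPS: BntWG10014338 was highest in replicate 2 and BntWG10014339 in replicate 1. Their summed FPKM was 0.01, 0.06 and 0.05 in TPS replicates 1, 2 and 3 and 1.9, 0.76 and 0.08 in MPS replicates 1, 2 and 3. Hence the difference between the sections in the laccases was that of MPS replicates 1 and 2. BntWG10014338 had fractional counts in 2 libraries, as RSEM gives when reads also fit another transcript, and BntWG10014339 had none. HST had fractional counts in 3 libraries, peroxidase N1 in 3, peroxidase C3 in 4 and SHT in none. How far shared reads or assembled transcripts of the same loci moved these levels was not tested.

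The study's results paired both laccase genes with miR397a_4, miR397a_5 and miR828a_1 by target prediction. They reported both genes as significantly higher and these miRNAs as lower in MPS. The study called differences with DEGseq, which was not among the tests used here. They also gave the MYB gene BntWG10013420 as a putative target of miR828a_1. Its discussion names only miR397a_4 and miR397a_5 for the laccases. miR397 is known to guide the cutting of laccase transcripts, and miR828 is better known for MYB transcripts. The sequences of the 4 miR397 variants in the files are shown because all hold a common stretch of 18 bases, given in capitals, and differ only in where they start and end.
miR397a_2: tcaTTGAGTGCAGCGTTGATG
miR397a_5: aTTGAGTGCAGCGTTGATGaa
miR397_1: aTTGAGTGCAGCGTTGATGa
miR397a_4: TTGAGTGCAGCGTTGATGaaa
The seed, bases 2 to 8, is therefore shifted among them. It is TTGAGTG in miR397a_5 and miR397_1, CATTGAG in miR397a_2 and TGAGTGC in miR397a_4. For miR828a_1 the seed is in capitals.
miR828a_1: tCTTGCTCaaatgagtattcca

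miR397a_5 was at 3.12, 4.69 and 5.37 TPM in TPS replicates 1, 2 and 3 and at 2.97, 2.19 and 1.54 TPM in MPS replicates 1, 2 and 3, where TPM is the tag count scaled to the total tags of the library. All MPS libraries were below all TPS libraries, but TPS replicate 1 and MPS replicate 1 were close to each other. The log2 fold change of -0.97 (SE 0.491) had an adjusted p of 0.322 by edgeR's quasi-likelihood test over 329 miRNAs. miR828a_1 was at 5.23, 2.88 and 2.72 TPM in TPS and at 0.97, 1.93 and 2.25 TPM in MPS, again without overlap. Its log2 fold change was -1.01 (SE 0.532), with an adjusted p of 0.348 by edgeR. The share of the 329 miRNAs without overlap was not counted, so nothing is read from the lack of overlap in miR397a_5 and miR828a_1.

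miR397a_4, which starts at the common stretch, was close to absent apart from 1 library. It was at 0, 0.13 and 3.84 TPM in TPS and at 0.03, 0 and 0.03 TPM in MPS, with 106 tags in TPS replicate 3 and 4 in TPS replicate 2. miR397a_2, which starts 3 bases earlier, was the most abundant variant by its section means. It was at 2.79, 13.92 and 16.79 TPM in TPS and at 5.57, 14.04 and 6.75 TPM in MPS, so the sections overlapped (log2 fold change -0.35, SE 0.772, edgeR adjusted p 0.799). miR397_1 was at 0.03 to 0.39 TPM in the 6 libraries and was too low to be fitted.

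Summed over the 4 variants, miR397 was at 6.14, 19.13 and 26.25 TPM in TPS and at 8.88, 16.26 and 8.51 TPM in MPS. The sections overlapped, with means of 17.2 ± 10.2 TPM and 11.2 ± 4.37 TPM (SD, n = 3 each), and no test is given, since 3 samples against 3 cannot reach a p below 0.10 in an exact test. miR828-3p was listed only in MPS replicates 2 and 3, at 0.03 TPM each. The miR408 miRNAs, which in Arabidopsis target plantacyanin and some laccases, ranged from 0 to 28.66 TPM, and the sections overlapped for each of the 3. No miRNA of the 329 was called by edgeR, that is 0%, although 59 (17.9%) passed an unadjusted p of 0.05. By DESeq2, 49 were called, and edgeR called 5 without TPS replicate 1, none of them a miR397, miR408 or miR828.

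Set side by side by library, MPS replicate 3 had the lowest miR397a_5 of all libraries and the lowest level of BntWG10014339 within MPS. MPS replicate 1 had the highest level of BntWG10014339 and, within MPS, the highest miR397a_5 and the lowest miR828a_1. Whether a miRNA changed the level of a laccase was not tested, and no target site was examined here.

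**Figure D3:**
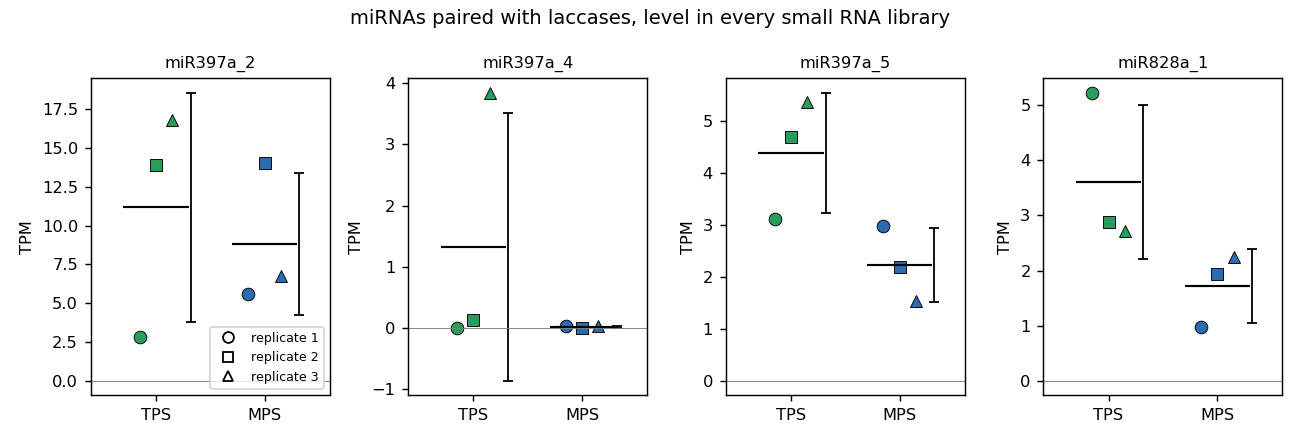
Level of 3 miR397 variants and miR828a_1 (TPM, linear axes that differ between panels) in the 3 TPS and 3 MPS small RNA libraries, with the section mean (line) and SD (bar). miR397a_5 and miR828a_1 do not overlap between sections, miR397a_2 overlaps, and miR397a_4 is at 3.84 TPM in TPS replicate 3 and at most 0.13 TPM elsewhere. The share of all miRNAs without overlap was not counted.

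Further genes of the pathway were taken by name from the part of the study's table of differential genes that was at hand. They were thus selected by the study on these samples, and their directions are not independent evidence. The 3 groups held 21 genes: 8 BAHD acyltransferases, 6 class III peroxidases and 7 monolignol and dirigent proteins. Of these, 9 passed the filter and 1 was called by edgeR, lower in MPS, where 0.53% of all annotated genes fitted were called lower. The fitted log2 fold changes of the 9 ran from -5.16 to 7.43, with a median of -2.32 against 0.03 over all annotated genes fitted. DESeq2 called 7 of the 9 (background 7.96%), and limma on log2(FPKM + 0.5) called 4 (background 2.75%). The 12 others were at most 2.08 FPKM in any library.

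Among the acyltransferases none of 4 fitted genes was called by edgeR, 1 was higher and 3 were lower by their fitted values. A further HST gene, BntWG10004119, was far more abundant than the HST gene above, at 55.02, 71.16 and 72.49 FPKM in TPS and 10.1, 19.38 and 10.33 FPKM in MPS. The sections did not overlap, and its log2 fold change of -2.32 (SE 0.340) had an edgeR adjusted p of 0.0543, or 0.0476 with the replicate number as a block, and it was called by limma on log2(FPKM + 0.5) (adjusted p = 0.0136). It was at 11.1 to 14.1 times the FPKM of BntWG10001019 in TPS and at 20.7 to 80.8 times in MPS. Of the 3 genes at hand with this name, BntWG10004119 thus had most of the FPKM in every library. A gene named HHT1, which in Arabidopsis feruloylates omega-hydroxy acids of suberin, had the largest fitted value of these groups. This gene, BntWG10010510, was at 0.02, 0.19 and 0.12 FPKM in TPS and at 30.89, 27.77 and 1.21 FPKM in MPS. MPS replicate 3 was far below the other MPS libraries, and its log2 fold change of 7.43 (SE 1.53) had an edgeR adjusted p of 0.0884. Another HHT1 gene, BntWG10009464, had a value of the opposite sign, with a log2 fold change of -3.97 and an edgeR adjusted p of 0.193. BntWG10010510 passed the filter only through MPS, with 1, 11 and 7 counts in TPS. BntWG10009464 passed it only through TPS, with 0, 6 and 3 counts in MPS. DESeq2 called both HHT1 genes and BntWG10004119, with adjusted p of 3.99e-08 for BntWG10004119, 1.35e-08 for BntWG10010510 and 0.0151 for BntWG10009464.

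The 2 further SHT genes were low. BntWG10002772 was at 0.89, 0.21 and 0.36 FPKM in TPS and at most 0.14 FPKM in MPS. BntWG10002775 was at 0.99, 0.12 and 0.39 FPKM in TPS and at most 0.03 FPKM in MPS. For both, TPS replicate 1 was highest and replicate 2 lowest, which is the order of the SHT gene above; they were named after their values had been seen.

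Of the 3 fitted class III peroxidases, 1 was called by edgeR. A gene likewise named peroxidase C3, BntWG10004995, fell from 4.57, 2.13 and 3.79 FPKM in TPS to 0.5, 0.39 and 0.4 FPKM in MPS, with a log2 fold change of -2.97 (SE 0.415) and an edgeR adjusted p of 0.0496. This call was lost under 10 of the 14 alternatives, among them with the replicate block (adjusted p = 0.0843), without any 1 library (0.0834 to 0.273) and with replicates 2 and 3 only (0.0670). BntWG10003938 was at 18.2 to 22.1 times the FPKM of this gene in TPS and at 12.6 to 23.2 times in MPS, so their proportion in TPS lay within its range in MPS. Both were highest in TPS replicate 1 and lowest, within TPS, in replicate 2.

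Peroxidase 4 (BntWG10011549) was, like peroxidase N1, higher in MPS, at 27.21, 54.4 and 94.99 FPKM against 1.25, 3.48 and 4.23 FPKM in TPS. Its log2 fold change of 4.29 (SE 0.729) had an edgeR adjusted p of 0.0680, which was 0.0427 with the replicate block and 0.0286 with replicates 2 and 3 only, and DESeq2 called it (adjusted p = 8.76e-09). Peroxidase 47 (BntWG10011441) was at 9.54, 6.1 and 16.89 FPKM in TPS and 0.2, 2.59 and 3.06 FPKM in MPS, without overlap (log2 fold change -2.43, SE 0.955, edgeR adjusted p 0.296). PER61 (BntWG10001496), PER3 (BntWG10003048) and PER10 (BntWG10008532) did not pass the filter. Over all 8 peroxidases named here, these included, the summed FPKM was 116.46, 50.6 and 97.31 in TPS and 45.33, 69.4 and 114.12 in MPS. The sums overlapped: peroxidase C3 made up most of them in TPS, and in MPS most came from peroxidase 4.

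Dirigent proteins guide the coupling of phenoxy radicals, and the fitted ones had values of both signs. DIR23 genes BntWG10011348 and BntWG10010704 had log2 fold changes of -5.16 (edgeR adjusted p 0.123) and 3.60 (edgeR adjusted p 0.130), and DESeq2 called both (adjusted p 0.00784 and 0.000591). BntWG10011348 had 24, 15 and 49 counts in TPS and 0, 0 and 2 in MPS, so it passed the filter only through TPS. BntWG10010704 was at 0.53, 1.9 and 3.03 FPKM in TPS and at 13.9, 45.11 and 9.44 FPKM in MPS.

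**Figure D4:**
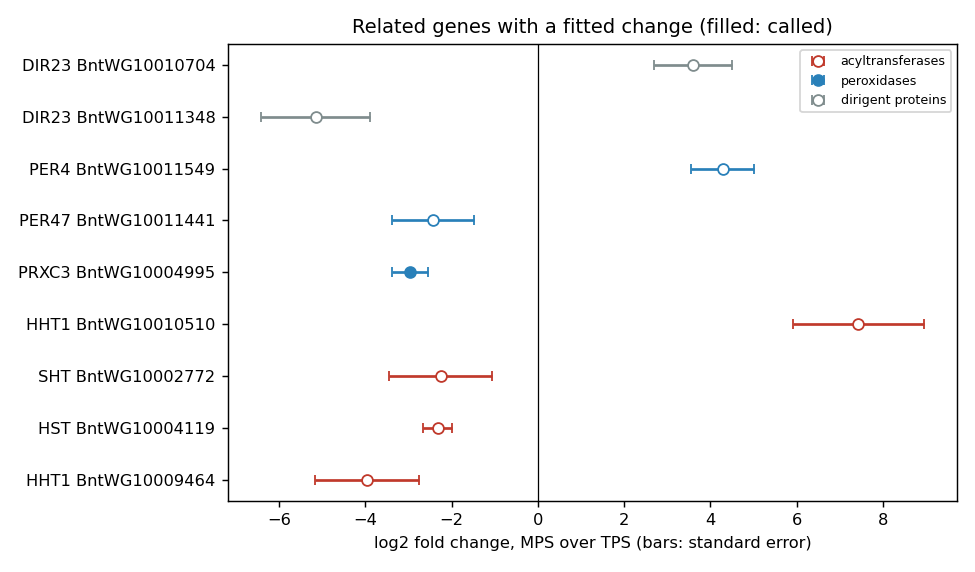
Fitted log2 fold change of MPS over TPS (horizontal axis, bars are the SE) for the 9 pathway genes that passed the filter on low counts, colored by group. The filled point is the called peroxidase C3 gene BntWG10004995, and the open points were not called.

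The genes most like each of the 6 over the libraries were sought among 10292 annotated genes, by Pearson r of log2(FPKM + 0.5) over 6 libraries, and named where the study's table gave a protein name (188 of them). Since the libraries fall into the sections, any gene that differs strongly between them scores high, and r is only a measure of likeness. For HST the closest named genes were a phospholipase A1-IIgamma, BntWG10005785 (r = 0.998), and an endochitinase 3, BntWG10010250 (r = 0.995). The latter was at 94.1, 315.71 and 269.14 FPKM in TPS and at most 0.8 FPKM in MPS. SHT and peroxidase C3 had the same closest named genes, the transcription factors bHLH146 (BntWG10007271, r = 0.995 and 0.991) and bHLH111 (BntWG10006815, r = 0.994 for both). bHLH146 was at 11.1, 4.54 and 8.13 FPKM in TPS and at most 0.03 FPKM in MPS, again with replicate 1 highest and replicate 2 lowest in TPS.

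For peroxidase N1 they were a germacrene D synthase, BntWG10004457 (r = 0.985), which makes a sesquiterpene, and the trihelix factor GT-3b, BntWG10005870 (r = 0.975). The synthase was at 0.17 to 0.32 FPKM in TPS and at 9.17, 6.47 and 6.58 FPKM in MPS, with MPS replicate 1 highest as in peroxidase N1. The number of genes with r of at least 0.95 was 194 for HST, 155 for SHT, 153 for peroxidase C3 and 68 for peroxidase N1, but only 10 for BntWG10014338 and 18 for BntWG10014339.

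For the laccase BntWG10014339 the closest named gene was the transcription factor MYB3 (BntWG10003917, r = 0.9504), at 0.13 to 0.32 FPKM in TPS and at 8.02, 5.21 and 0.5 FPKM in MPS. It shared the drop in MPS replicate 3, as did the GDSL esterase/lipase BntWG10005555 (r = 0.929) at 21.58, 15.94 and 0.49 FPKM in MPS. BntWG10014338 was closest to the gene of photosystem II protein D1 (BntWG10003397, r = 0.990), a chloroplast protein, which was at 352.85 FPKM in MPS replicate 2 and 3.23 to 5.33 FPKM in the other libraries. The next was ABC transporter G family member 1 (BntWG10000878, r = 0.909), which was also highest in MPS replicate 2, at 9.53 FPKM. The same library had most of the counts of BntWG10014338.

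The libraries had 49056682 to 52971221 expected counts, of which 33.8% to 35.7% were on annotated genes. Replicate 1 stood apart: TPS replicate 1 correlated with MPS replicate 1 (r = 0.844 over annotated genes) about as closely as with TPS replicates 2 and 3 (r = 0.837 and 0.856). Among the secondary wall genes, CESA7, IRX1 and FLA12 were highest within TPS in replicate 1, and their sections overlapped. MYB46/MYB83, MYB308 and IRX15L were not highest there, and their sections did not overlap. CESA7 (BntWG10007243), a cellulose synthase subunit of secondary walls, was at 50.86, 10.48 and 10.76 FPKM in TPS and overlapped with MPS, where replicate 1 was at 46.37 FPKM. MYB46/MYB83 was at 0.23, 0.58 and 0.57 FPKM in TPS, and IRX15L at 29.8, 28.2 and 35.91 FPKM. The 6 secondary wall genes summed to 58.8 to 145 FPKM in TPS and 111 to 429 FPKM in MPS. Of these, 5 had positive fitted values without being called by edgeR, among them MYB46/MYB83 BntWG10013420 (log2 fold change 2.35, edgeR adjusted p 0.134, DESeq2 0.00745) and MYB308 BntWG10001325 (4.14, edgeR adjusted p 0.144, DESeq2 0.00478, limma 0.0460). MYB308 passed the filter only through MPS, with 0, 1.5 and 4 counts in TPS. The study's results call BntWG10013420 an ortholog of MYB46 and MYB83. Its discussion likens the gene to AtMYB4 and proposes that it may inhibit secondary wall formation. The xylan-related IRX15L (BntWG10008444) was called lower by edgeR (-2.23, adjusted p 0.0368, or 0.0579 with the replicate block, and lost under 8 of the 14 alternatives).

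For markers of other cells the summed levels were as follows, and edgeR called none of the fitted genes. Of those named, DESeq2 called WAXS1 (adjusted p 0.000148), KCS19 (0.00626), SEOB (0.000514) and CAB25 (0.0405), and edgeR called SEOB with replicates 2 and 3 only (0.0369). Those of cuticle and epidermis, 5 genes of which 4 were fitted and had negative values, summed to 206 to 631 FPKM in TPS and 8.07 to 305 FPKM in MPS, with overlap. Their lowest adjusted p by edgeR was 0.0757, for the wax gene WAXS1 (BntWG10001053), followed by 0.196 for KCS19 (BntWG10001411) and 0.480 for the lipid transfer protein NLTP2 (BntWG10000213). Most of the sum came from another NLTP2 gene, BntWG10009546, at 165.31, 476.48 and 429.3 FPKM in TPS and 6.87, 19.61 and 263.78 FPKM in MPS. The NLTP2 genes overlapped between the sections. KCS19 (7.8 to 17.88 FPKM in TPS, 0.37 to 2.94 in MPS) and WAXS1 (1.08 to 1.81 in TPS, 0.27 to 0.31 in MPS) were lower in MPS without overlap, as were 11.8% of the annotated genes fitted. The phloem marker SEOB (BntWG10001436, edgeR adjusted p 0.119) was at 0.02 to 0.21 FPKM in TPS and 0.49 to 2.73 FPKM in MPS. It passed the filter only through MPS, with 18, 4 and 2 counts in TPS. Photosynthesis genes (4, with CAB25 BntWG10000221 at an adjusted p of 0.223) summed to 3.88 to 6.09 FPKM in TPS and 0.62 to 2.33 FPKM in MPS. RCA1 and LHCB7 among them were listed in 1 library each, of MPS. The gene of photosystem II protein D1 above, BntWG10003397, is not in this list and was at 3.23 to 4.04 FPKM in TPS and 4.24 to 352.85 FPKM in MPS. The 2 genes for the xylem cell death metacaspase AMC9 summed to 1.3 to 4.51 FPKM in TPS and 0.33 to 0.97 FPKM in MPS, and the edgeR adjusted p of BntWG10002856 was 0.586. The part of cell composition in the levels of the 6 genes was not tested.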

How the data were processed

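Bark of TPS and MPS was sequenced in 3 replicates each as cDNA and as small RNA, and samples were grouped by the tissue given in their labels. For the cDNA libraries, the authors aligned reads to a ramie genome with Bowtie2 and took the expected count of each transcript from RSEM, and the deposited FPKM values come from the same alignments; HISAT, StringTie and Cufflinks are named in the submitters' processing notes, with no versions in the sources used here. Transcripts under 0.01 FPKM are not listed and were taken as 0. For small RNAs, the authors gave the tag count of each miRNA and TPM, the deposited count over the total of the library. The circRNA values were not used, because no coordinates tied them to genes. No deposited column was left without a sample (0). Gene models hold coding sequence only, their lengths all being multiples of 3. The name BntWG stands for the GLEAN gene models of the files.

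Rounded expected counts of all transcripts were fitted with edgeR 4.0.16 (TMM, filterByExpr, quasi-likelihood test) in R 4.3.3, and p was adjusted by Benjamini-Hochberg within annotated genes. A call needed an adjusted p below 0.05 and a log2 fold change of 1 or more in either direction. For miRNAs the library totals were used as library sizes. The SE is approximate: the size of the log2 fold change was divided by the root of its F statistic. Alternatives were DESeq2 1.42.0, its size factors in edgeR, limma 3.58.1 on log2(FPKM + 0.5) or (FPKM + 0.1), no filter, each library left out, replicates 2 and 3 only, and a replicate block. The code was tested on simulated data. Plots were drawn with matplotlib 3.10.9.

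The 6 genes, the lists and the tests were chosen with earlier results of these data known. Of each list, up to 3 fitted genes with the lowest adjusted p were named, all miR397 and miR828 miRNAs, miR408 by its range, and for each of the 6 genes the 2 named genes with the highest r (fitted genes with a mean of at least 1 FPKM). Same-numbered samples deviated together from their section means (r = 0.492, 0.198 and 0.230 for replicates 1, 2 and 3 in genes, 0.640, 0.331 and 0.322 in miRNAs). The labels do not explain the numbers. The main fits left this pairing out, so their p-values are unpaired. Only the replicate block, an alternative, used it. Replicates are called biological in the methods. Each section holds 3 samples, and p-values measure the spread between them. The common dispersion of the transcript counts was 0.366.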

Additional observations from a re-analysis of the deposited data

How the results depend on the processing

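The 4 fitted genes kept their direction under all 14 alternatives. Genes called between sections (31 higher and 72 lower in MPS) were 388 and 694 by DESeq2, 4 and 14 without a filter, 114 and 259 by limma on log2(FPKM + 0.5), 113 and 251 by limma on log2(FPKM + 0.1), 50 and 149 by limma without a filter, 19 and 51 with the replicate block, 114 and 201 with replicates 2 and 3 only, and 0 to 7 and 0 to 33 with each library left out. Those counts were of 13585 annotated genes by DESeq2, by limma with the filter and with the block. Without a filter they were of 20809 by edgeR and 20840 by limma. Of the pathway genes (1 called), 7 were called by DESeq2 (background 7.96%) and 4 and 4 by limma with 0.5 (background 2.75%) and 0.1 added. Without a filter, edgeR called 0 and limma 2. With the replicate block 2 were called (background 0.515%), and 0 to 0 with each library left out. DESeq2 called 49 miRNAs, and edgeR called 0 to 5 with each library left out. The log2 fold change of miR397a_2 ranged from -0.85 to 0.0725 and that of miR408d from -1.998 to 1.00 with each library left out, changing sign. With the replicate block, the calls of HST, SHT, peroxidase N1, peroxidase C3, BntWG10004995 and IRX15L were lost and those of BntWG10004119 and PER4 gained. The cause of these differences was not tested. Counts limit the laccases: 10 counts in TPS and 206 in MPS for BntWG10014339, and 15.44 in MPS for BntWG10014338, with 74.8% and 77.0% of the MPS counts in 1 library each.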
